A study of Caenorhabditis elegans with 8 samples.

Results

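The insulin-like signalling route of Caenorhabditis elegans runs from the receptor DAF-2 to the transcription factor DAF-16, and 10 of its genes were followed in arrested first-stage (L1) larvae. They are daf-2, ist-1, age-1, daf-18, pdk-1, akt-1, akt-2, sgk-1, daf-16 and ddl-1, taken by gene name from a count table of 46422 usable gene rows, in which all 10 were found. The table holds 8 RNA sequencing libraries from whole worms. There were 4 libraries of the wild-type strain N2 and 4 of strain HBR227, genotype aptf-1(gk794), each with replicates named A to D. Eggs of both strains were freed by hypochlorite and left without food in M9 buffer, and arrested L1 larvae were taken at 48 hours. Neither strain was treated in any other way. The mutated gene, aptf-1, encodes an AP-2 transcription factor needed by the sleep neuron RIS. The labels call the libraries replicates without saying that each came from its own culture, so every p-value measures the spread between these libraries.

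In this pathway, insulin-like peptides act on the receptor tyrosine kinase DAF-2. The receptor activates the phosphoinositide 3-kinase AGE-1, whose lipid product is removed by the phosphatase DAF-18 and recruits the kinases PDK-1, AKT-1 and AKT-2. The kinase SGK-1 is activated by PDK-1. Phosphorylation by the AKT kinases keeps the FOXO factor DAF-16 out of the nucleus. In hatchlings without food the pathway is low in activity, and DAF-16 and DAF-18 are known to be needed for L1 larvae to stay arrested and to survive. The readout here is transcript abundance, while the pathway itself signals through phosphorylation and the place of DAF-16 in the cell.

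Library totals ran from 43567457 to 65016907 counts, and the 10 genes had between 406 and 23832 counts in a library. The library labelled HBR227 A stood apart from the other 7 on the first principal component (74.3, against -28.3 to 9.86). Fold changes of the 10 genes and ratios between them are given with and without it. For genes outside the 10, only some values are given both ways. The targeted gene aptf-1 went from 3.73 ± 0.463 CPM in N2 to 0.982 ± 0.176 in HBR227 (SD, n = 4 each), and all 4 mutant libraries lay below every N2 library. CPM are counts per 1e6 counts over the genes with enough counts, with that total scaled by the trimmed mean of M-values (TMM). The labels do not say which part of aptf-1 the allele removes. All 10 markers of neurons, muscle, pharynx, intestine, epidermis and germ cells were detected. One of them rose (ges-1, an intestinal esterase) and 1 fell (dpy-7, a cuticle collagen), where 21.5% of all genes were called. The other marker of each of these tissues did not follow and was not called. Intestinal elt-2 had a log2 fold change of -0.07 and epidermal elt-3 of 0.26. Without HBR227 A, the neuronal rab-3 was also called higher, making 2 higher and 1 lower, where 44.3% of all genes were called. The summed level of the 10 markers was 8584 to 9488 CPM in N2, 9063 to 9579 in HBR227 B to D and 6510 in HBR227 A. Muscle myosin transcripts make up most of that sum, and single markers in HBR227 A went both ways: unc-54 was at 4190 CPM, below the other 7 libraries (5140 to 5870), and the germ cell gene pgl-1 at 38.7, above them (11.5 to 15.8). The epidermal factor gene elt-3 was also highest in HBR227 A, at 75.0 CPM, against 44.6 to 53.4. Markers of later stages were near 0, with at most 3.11 CPM for any of vit-2, vit-6, col-19 and msp-3. Their sum was 1.84 to 2.41 CPM in N2 and 2.83 to 4.98 in HBR227, where vit-6 rose. The part of these marker differences in the results on the pathway was not tested. In whole worms, fewer cells of a type and less RNA per cell cannot be told apart.

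The receptor gene and the transcription factor gene were higher in the mutant. daf-16 rose 1.43-fold, daf-2 1.22-fold and age-1 1.2-fold in HBR227, and in these 3 genes every HBR227 library lay above every N2 library. The other 7 genes did not pass the test. Counts were scaled by the trimmed mean of M-values (TMM) and tested over all 17522 genes with enough counts by edgeR's quasi-likelihood test, in which a Benjamini-Hochberg adjusted p under 0.05 was called. Of the 10 genes, 3 were called higher and 0 lower, against 21.5% of all genes called (11.2% higher and 10.4% lower). Full separation of the strains was seen in 3 of the 10 genes and in 28.9% of all genes. Both shares are near those of all genes, and the results below concern the single genes. At an unadjusted p under 0.05 the 10 genes held 4 higher and 0 lower, where 6228 of all 17522 genes had such a p in either direction. DESeq2 and limma voom each also called 3 of the 10 higher and 0 lower, with 4462 and 3889 of all genes called. Log2 fold changes had a median of 0.13 over the 10 genes and of 0.00 over all genes.

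Without HBR227 A, 7 of the 10 genes were called, 4 higher (daf-2, age-1, sgk-1 and daf-16) and 3 lower (daf-18, pdk-1 and ddl-1). The 3 genes called with all 8 libraries were among them, in the same direction. The share of all genes called rose as well in that fit, to 44.3% (21% higher and 23.3% lower). Scaled by total counts alone, the median over all genes shifted to -0.11, the calls over all genes became 1174 higher and 3111 lower in place of 1960 and 1814, and daf-2 and daf-16 were the pathway genes still called.

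**Figure D1:**
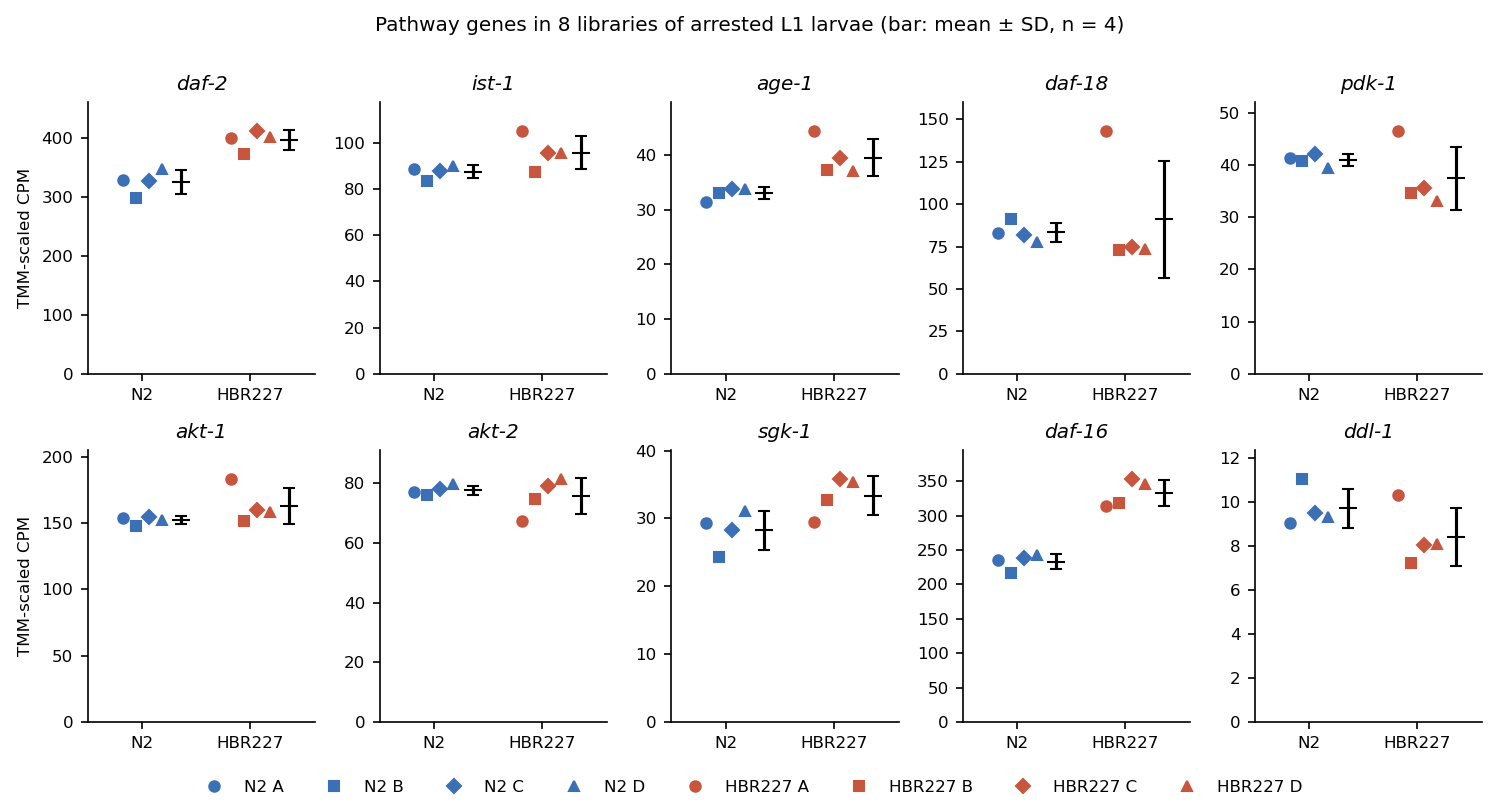
TMM-scaled CPM (vertical axes, from 0) of the 10 pathway genes in each N2 library (blue) and HBR227 library (red), with symbols for replicates A to D and bars for the mean ± SD of 4 libraries. The strains are fully apart in daf-2, age-1 and daf-16, and HBR227 A lies at 142.9 CPM for daf-18, where HBR227 B to D lie between 73.0 and 74.6.

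The levels of the 10 genes covered about an order of magnitude. Per kilobase of merged exons, akt-1 (66.8 ± 1.33 CPM per kb, SD, n = 4) and daf-16 (63.3 ± 3.10) were the most abundant in N2, and their ranges overlapped. daf-2 (39.2 ± 2.50), akt-2 (32.6 ± 0.649), daf-18 (25.01 ± 1.70) and ist-1 (22.1 ± 0.7) followed, each apart from its neighbour. sgk-1 (17.3 ± 1.74) and pdk-1 (16.9 ± 0.474) overlapped, and ddl-1 (13.3 ± 1.22) and age-1 (8.39 ± 0.278) came last. In HBR227 daf-16 stood first at 90.4 ± 5.21 CPM per kb, above akt-1 at 71.6 ± 6.0 with no overlap. By the mean of all 4 mutant libraries every other gene kept its rank. The place of daf-18 above ist-1 rested on HBR227 A, where they were at 42.88 and 26.48 CPM per kb. In each of HBR227 B to D ist-1 (21.98 to 24.06) lay above daf-18 (21.91 to 22.37). Neighbours that overlapped in HBR227 were akt-2 with daf-18, daf-18 with ist-1, sgk-1 with pdk-1, pdk-1 with ddl-1 and ddl-1 with age-1. Within HBR227 B to D, of these pairs only daf-18 with ist-1 and ddl-1 with age-1 overlapped. Averaged over all libraries, daf-16 exceeded 92.7% and age-1 52.6% of the 15683 tested genes with a known exon length. The kinase gene age-1 was thus the least abundant of the 10 on this scale, and its antagonist daf-18 was higher in every library.

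**Figure D2:**
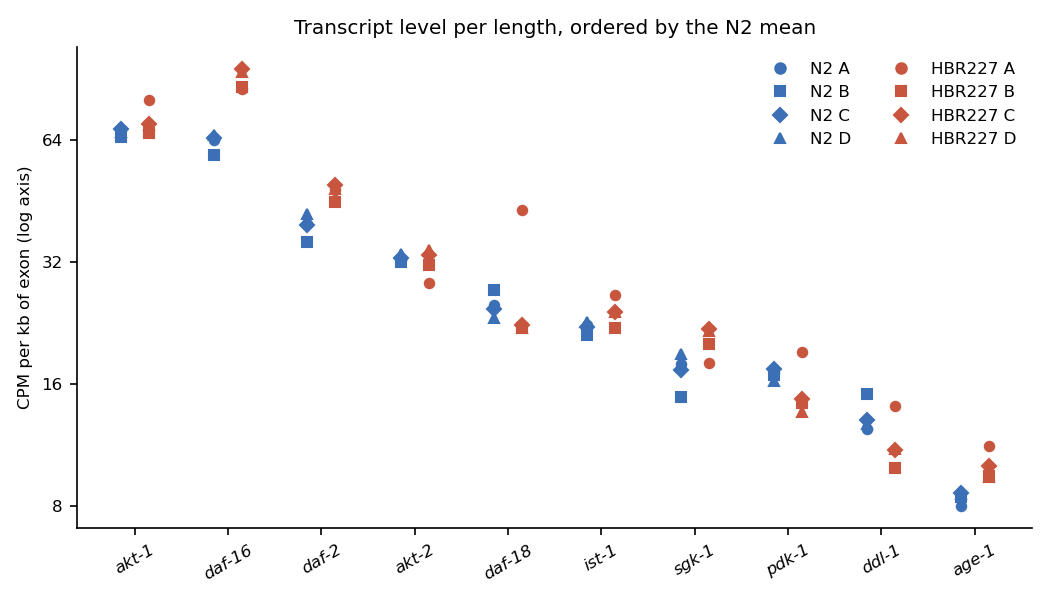
TMM-scaled CPM per kilobase of exon on a log axis for each gene, ordered from left to right by the N2 mean, with N2 libraries in blue and HBR227 libraries in red and symbols for replicates A to D. In N2 the order runs from akt-1 at 66.8 to age-1 at 8.39 CPM per kb, and in HBR227 daf-16 passes akt-1.

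At the receptor, daf-2 (WBGene00000898, chromosome III, 2994514 to 3040846, minus strand, WBcel235), the only member of the insulin and IGF receptor type in the worm, rose. Its CPM was 329, 297.5, 326 and 348 in N2 A to D, against 399.9, 372, 411 and 402 in HBR227 A to D. The lowest mutant library thus lay above the highest wild-type one, and HBR227 A fell within the range of its own group. The mean went from 325 ± 20.7 to 396 ± 16.8 CPM (SD, n = 4 each), which is a log2 fold change of 0.29 ± 0.06 (SE; adjusted p = 0.0069). It was 0.28 ± 0.05 without HBR227 A (adjusted p = 2.3e-04).

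The gene ist-1 (WBGene00002163, chromosome X, 7126648 to 7139666, plus strand) encodes the homologue of insulin receptor substrate proteins, which in mammals link the receptor to the lipid kinase. It had 88.7, 83.7, 87.8 and 90.1 CPM in N2 A to D, against 105.0, 87.2, 95.4 and 95.4 in HBR227 A to D. HBR227 A was the highest of the 8 libraries, and HBR227 B lay inside the N2 range. The log2 fold change was 0.13 ± 0.06 (SE; adjusted p = 0.164) and did not pass, also not without HBR227 A (0.08 ± 0.04, adjusted p = 0.132).

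The lipid kinase gene age-1 (WBGene00000090, chromosome II, 11519328 to 11527054, minus strand), which encodes the catalytic subunit of the phosphoinositide 3-kinase, rose by a small amount. Its CPM was 31.4, 32.99, 33.8 and 33.7 in N2 A to D, against 44.3, 37.2, 39.5 and 37.01 in HBR227 A to D. The groups did not overlap, and HBR227 A was the highest library. The mean went from 32.98 ± 1.09 to 39.5 ± 3.39 CPM (SD, n = 4 each), which is a log2 fold change of 0.26 ± 0.07 (SE; adjusted p = 0.0277), and 0.20 ± 0.05 without HBR227 A (adjusted p = 0.0023). The call was lost without N2 A (adjusted p = 0.0607), without HBR227 C (adjusted p = 0.0686) and with total counts alone (log2 fold change 0.15, adjusted p = 0.117). Exons of B0334.10 on the other strand overlap 4.89% of its exon length, and whether strand was used in counting is not given in the sources used here.

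The gene of the opposing phosphatase, daf-18 (WBGene00000913, chromosome IV, 420011 to 425177, minus strand), depended on 1 library. It had 83.3, 91.1, 81.6 and 77.5 CPM in N2 A to D, against 142.9, 73.0, 74.6 and 73.3 in HBR227 A to D. HBR227 A was the highest of all 8 libraries, at 1.94 times the mean of the other 3 mutant libraries, which lay close together below every N2 library. With all 8 libraries the log2 fold change was 0.13 ± 0.22 (SE; adjusted p = 0.736). Without HBR227 A it turned to -0.18 ± 0.05 and was called lower (adjusted p = 0.0062), from 83.4 ± 5.66 CPM (SD, n = 4) to 73.6 ± 0.808 (SD, n = 3). No exon of another gene overlaps those of daf-18.

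Of the 4 kinase genes downstream, none passed with all 8 libraries by edgeR, where sgk-1 was the 1 with an unadjusted p under 0.05; DESeq2 and limma voom called none of them either. The kinase PDK-1 phosphorylates and activates the AKT and SGK kinases. Its gene pdk-1 (WBGene00003965, chromosome X, 1321344 to 1327986, plus strand) had 41.3, 40.7, 42.1 and 39.4 CPM in N2 A to D, against 46.4, 34.7, 35.5 and 33.1 in HBR227 A to D. HBR227 A was again the highest of all libraries, and HBR227 B to D lay below every N2 library, as they did for daf-18. The log2 fold change was -0.13 ± 0.10 (SE; adjusted p = 0.406) with HBR227 A and -0.25 ± 0.05 without it (adjusted p = 3.5e-04).

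The 2 AKT genes encode related kinases that phosphorylate DAF-16. For akt-1 (WBGene00000102, chromosome V, 10248905 to 10252845, plus strand) CPM was 154, 148, 155 and 152 in N2 A to D, against 183, 151, 159.7 and 158 in HBR227 A to D. Only HBR227 A was far from the N2 libraries. The log2 fold change was 0.10 ± 0.06 (SE; adjusted p = 0.277), 0.04 ± 0.04 without HBR227 A (adjusted p = 0.395) and -0.01 with total counts alone. For akt-2 (WBGene00000103, chromosome X, 14147700 to 14152070, plus strand) CPM was 76.9, 76.1, 77.9 and 79.7 in N2 A to D, against 67.5, 74.7, 79.1 and 81.3 in HBR227 A to D. Here HBR227 A was the lowest library, and the strains overlapped. The log2 fold change was -0.04 ± 0.06 (SE; adjusted p = 0.71) and 0.01 ± 0.04 without HBR227 A (adjusted p = 0.816).

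SGK-1 is a related kinase that also acts below TORC2. Its gene sgk-1 (WBGene00004789, chromosome X, 16254842 to 16262122, minus strand) had 29.3, 24.3, 28.3 and 31.05 CPM in N2 A to D, against 29.5, 32.8, 35.7 and 35.4 in HBR227 A to D. HBR227 A lay within the N2 range, and HBR227 B to D above it. The log2 fold change was 0.24 ± 0.09 (SE; adjusted p = 0.0923) and did not pass. Without HBR227 A it was 0.30 ± 0.07 and was called higher (adjusted p = 0.0023).

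The pathway's transcription factor gene, daf-16 (WBGene00000912, chromosome I, 10750498 to 10776703, plus strand), had the largest fold change of the 10. Its CPM was 236, 217, 238 and 242 in N2 A to D, against 314, 319, 353 and 346 in HBR227 A to D. The gap between the strains was wider than the spread within either of them. The mean went from 233 ± 11.4 to 333 ± 19.2 CPM (SD, n = 4 each), which is a log2 fold change of 0.51 ± 0.06 (SE; adjusted p = 4.0e-04). It was 0.54 ± 0.05 without HBR227 A (adjusted p = 1.2e-07) and 0.41 ± 0.05 with total counts alone (adjusted p = 6.8e-04). The gene makes several isoforms from different promoters, and the counts sum them. Exons of the noncoding gene H36N01.5 on the other strand overlap 2.28% of its exon length.

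DDL-1 belongs to a complex that holds the heat shock factor HSF-1 inactive and responds to insulin-like signalling. Its gene ddl-1 (WBGene00019125, chromosome II, 5647154 to 5648372, minus strand) had the lowest counts of the 10, with 9.05, 11.03, 9.50 and 9.32 CPM in N2 A to D, against 10.3, 7.25, 8.05 and 8.09 in HBR227 A to D. HBR227 B to D lay below all N2 libraries and HBR227 A within their range. The log2 fold change was -0.21 ± 0.12 (SE; adjusted p = 0.255), and -0.32 ± 0.09 without HBR227 A (adjusted p = 0.0074). Exons of its neighbour sam-4 overlap 13.5% of its exon length on the same strand, so its value is uncertain.

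**Figure D3:**
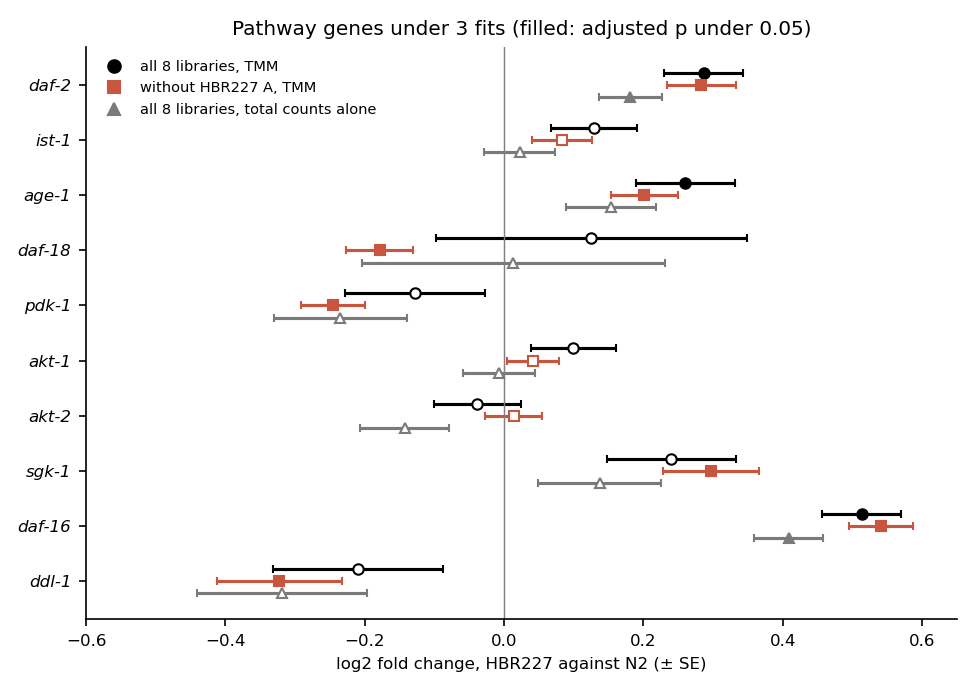
Log2 fold change of HBR227 against N2 (horizontal axis, ± SE) for each pathway gene with all 8 libraries (black circles), without HBR227 A (red squares) and with total counts alone as the scale (grey triangles), filled where adjusted p was under 0.05. daf-2 and daf-16 are filled in all 3 fits, and daf-18 changes sign when HBR227 A is left out.

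HBR227 A differed from its own group at most of these genes. It lay outside the range of HBR227 B to D at 9 of the 10, above it at 6 (ist-1, age-1, daf-18, pdk-1, akt-1 and ddl-1) and below it at 3 (akt-2, sgk-1 and daf-16). The difference at daf-18, 0.96 on the log2 scale, was the widest of the 10, and 11.4% of all tested genes differed by more. For daf-2, which lay inside the range, 96.7% did, and for the others the share ran from 37.6% (pdk-1) to 81.7% (daf-16). How many of all tested genes lay outside the range of HBR227 B to D was not counted. The 9 of 10 is therefore not read as particular to these genes.

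Ratios of counts within a library do not depend on how libraries are scaled, and 3 were compared between the strains. daf-16 gained on daf-2, the receptor gene. The ratio of daf-16 to daf-2 counts was 0.719, 0.728, 0.731 and 0.697 in N2 A to D, against 0.786, 0.857, 0.858 and 0.861 in HBR227 A to D. The strains did not overlap, with HBR227 A nearest to N2. The log2 ratio was higher by 0.23 in HBR227 (exact two-sided permutation p = 0.0286, the smallest that 4 against 4 allows, and 0.0857 adjusted over the 3 ratios). It thus failed the correction with all 8 libraries, while in each of the 4 mutant libraries it was above every N2 library. Without HBR227 A the difference was 0.26 (exact permutation p = 0.0286, 0.0429 adjusted over the 3 ratios). That p is again the smallest possible, here for 3 against 4 libraries. The adjusted value was lower because the ratio of daf-18 to age-1 also reached this p without HBR227 A.

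The balance of the phosphatase gene daf-18 to the kinase gene age-1 was 2.65, 2.76, 2.41 and 2.30 in N2 A to D, against 3.23, 1.96, 1.89 and 1.98 in HBR227 A to D. HBR227 A was the highest of the 8 libraries, and the other mutant libraries lay below all N2 libraries. The log2 ratio differed by -0.19 (exact two-sided permutation p = 0.314, also 0.314 adjusted over the 3 ratios), and by -0.38 without HBR227 A (exact permutation p = 0.0286, 0.0429 adjusted). For akt-1 to akt-2 the ratio was 1.91 to 2 in N2, 1.95 to 2.03 in HBR227 B to D and 2.71 in HBR227 A. The log2 ratio differed by 0.14 (exact permutation p = 0.143, 0.214 adjusted), and by 0.03 without HBR227 A (exact permutation p = 0.286, also 0.286 adjusted).

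**Figure D4:**
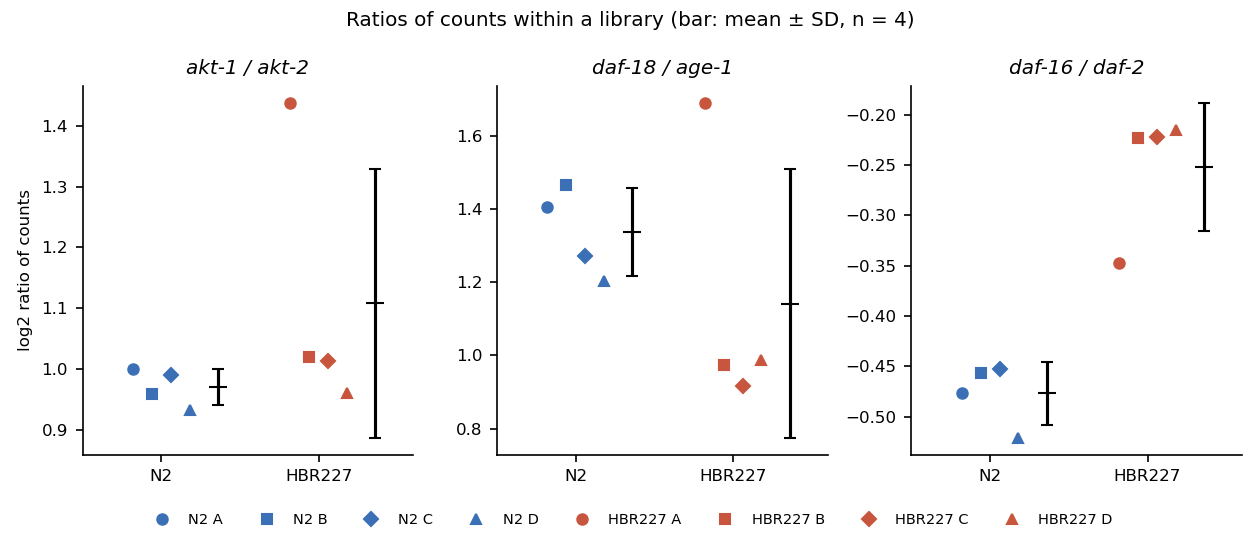
Log2 ratio of counts (vertical axes, each with its own scale) of akt-1 to akt-2, daf-18 to age-1 and daf-16 to daf-2 in each N2 library (blue) and HBR227 library (red), with symbols for replicates A to D and bars for the mean ± SD of 4 libraries. HBR227 A is the highest library in the first and middle ratio, and in the last the strains do not overlap.

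Among 8 other genes that act on the receptor and its kinases, 3 rose, none fell (0 at an unadjusted p under 0.05, and 0 by DESeq2 and by limma voom) and 5 did not pass, with a median log2 fold change of 0.16 beside 0.00 for all genes. Of all genes, 21.5% were called. aap-1, the adaptor subunit that partners AGE-1, rose from 30.5 ± 1.62 to 40.6 ± 2.73 CPM (SD, n = 4 each; log2 fold change 0.41 ± 0.07 SE, adjusted p = 0.0029). asna-1, an ATPase gene needed for insulin secretion, rose by 0.31 ± 0.07 (adjusted p = 0.0091). zfp-1, a chromatin factor gene that represses pdk-1, rose by 0.19 ± 0.05 (adjusted p = 0.0198), a call lost with total counts alone (0.08, adjusted p = 0.131). Exons of other genes overlap 12.2% of the zfp-1 exon length on its own strand and 8.62% on the other, and 7.53% of that of aap-1 on the other strand. Without HBR227 A, 5 of the 8 were higher and 1 lower, where 21% of all genes were higher and 23.3% lower.

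Of 23 regulators and cofactors of DAF-16, 3 rose, 2 fell and 18 did not pass, with a median of 0.14. This share called is at the level of all genes (21.5%), so the values concern the single genes. The 14-3-3 proteins bind phosphorylated DAF-16 and hold it in the cytoplasm, and their 2 genes went opposite ways. par-5 rose from 545 ± 14.1 to 682 ± 26.9 CPM (SD, n = 4 each; log2 fold change 0.32 ± 0.05 SE, adjusted p = 0.0013), and ftt-2 fell from 578 ± 8.36 to 512 ± 7.35 CPM (-0.18 ± 0.04, adjusted p = 0.0111). The libraries of the strains did not overlap in either gene, though the 2 genes are related in sequence and could share reads. prmt-1, a methyltransferase gene whose product methylates DAF-16 and so blocks its phosphorylation by AKT, rose by 0.56 ± 0.08 (adjusted p = 0.0011). swsn-4, the ATPase gene of the SWI/SNF chromatin remodeller that DAF-16 recruits, fell by 0.37 on the log2 scale, from 397.5 ± 16.7 to 307 ± 21.5 CPM (adjusted p = 0.0021). The rise not yet named, chosen after its value was seen, was in cbp-1, the CBP and p300 acetyltransferase gene (0.22 ± 0.06, adjusted p = 0.023), a call lost with total counts alone (0.11, adjusted p = 0.085). DESeq2 called 6 of the 23 higher and 2 lower, and 4462 of all genes in either direction. Without HBR227 A, 8 of the 23 were higher and 2 lower (43.5%, against 44.3% of all genes in that fit). Without N2 C, 1 of them was called lower, where 2563 of all genes were called in place of 3774.

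The partners of DDL-1 gave no call. The factor gene hsf-1 stood at 70.9 ± 1.89 CPM in the wild type and 70.3 ± 2.36 in the mutant (SD, n = 4 each; log2 fold change -0.01 ± 0.05 SE, adjusted p = 0.886). Its inhibitor gene hsb-1 stood at -0.14 ± 0.11 (adjusted p = 0.397) and ddl-2, whose product sits in the same complex, at 0.19 ± 0.08 (adjusted p = 0.102). Among these 3 genes edgeR gave 1 unadjusted p under 0.05, that of ddl-2, where 6228 of all 17522 genes had such a p. DESeq2 and limma voom called 0 of the 3. Without HBR227 A, ddl-2 was called higher (0.20, adjusted p = 0.0266) and hsb-1 lower (-0.25, adjusted p = 0.0045), in the fit that called 44.3% of all genes.

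Of 10 genes known as DAF-16 targets, 9 had enough counts, and among these 3 fell and none rose by edgeR while 6 did not pass, where 10.4% of all genes were lower and 11.2% higher. At an unadjusted p under 0.05 there were 4 lower and 1 higher, and DESeq2 and limma voom each called 4 lower and 1 higher. Of all 17522 genes, 6228 had an unadjusted p under 0.05. DESeq2 called 4462 of all genes and limma voom 3889, in either direction. The median was -0.21, and -0.045 without HBR227 A. The metallothionein gene mtl-1 had 44.1, 40.5, 43.3 and 44.9 CPM in N2 A to D, against 25.4, 18.3, 18.6 and 15.9 in HBR227 A to D. It fell well clear of the N2 range in each mutant library (log2 fold change -1.14 ± 0.13 SE, adjusted p = 4.1e-04). sod-3, the mitochondrial superoxide dismutase gene often used to report DAF-16 activity, fell from 2.28 ± 0.0822 to 1.33 ± 0.384 CPM (SD, n = 4 each; -0.77 ± 0.20, adjusted p = 0.0234), and another gene overlaps 10.1% of its exon length on the other strand. dod-3 fell by 0.41 on the log2 scale (SE 0.08; adjusted p = 0.0064).

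The remaining target genes depended on HBR227 A or did not pass. The small heat shock gene hsp-12.6, named after its values were seen, had 32.8 to 40.4 CPM in N2 and 33.9, 11.9, 15.1 and 13.3 in HBR227 A to D. The log2 fold change was -0.98 ± 0.33 (adjusted p = 0.067) with HBR227 A, which lay among the N2 libraries, and -1.45 without it (adjusted p = 7.8e-09). lea-1, a desiccation protein gene also named after its values were seen, stood at 0.13 ± 0.04 (adjusted p = 0.0504) and at 0.14 without HBR227 A (adjusted p = 0.0043). cki-1, the cell cycle inhibitor gene that DAF-16 turns on in L1 arrest, stood at 23.3 ± 0.966 CPM in the wild type and 25.3 ± 3.98 in the mutant (SD, n = 4 each; adjusted p = 0.446), and HBR227 A was its highest library at 31.2. In the mutant, then, daf-16 transcripts were higher beside lower transcripts of mtl-1, sod-3 and dod-3. Without HBR227 A, 4 targets were lower and 1 higher, in a fit that called 44.3% of all genes. The targets ctl-1, ctl-2 and icl-1, also named after their values were seen, did not pass in either fit. Each was lowest in HBR227 A (77.5, 67.2 and 2076 CPM). Their log2 fold changes were -0.21, -0.16 and -0.15 with all 8 libraries and -0.045, 0.02 and -0.0005 without HBR227 A.

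Upstream of the receptor, 26 of 40 insulin-like peptide genes had enough counts, with 7 higher and 5 lower, against 11.2% and 10.4% of all genes. These counts moved with single libraries, to 3 higher and 3 lower without HBR227 C, to 3 lower without HBR227 D and to 2 lower without N2 A or without N2 B. Calls over all genes fell as well, from 3774 to 2423 without HBR227 C, 2510 without HBR227 D, 2788 without N2 A and 2430 without N2 B. Without HBR227 A, 7 of 28 peptide genes were higher and 7 lower (50%, against 44.3% of all genes). With total counts alone 4 of 26 were higher and 6 lower, where 24.5% of all genes were called. By smallest p the first were ins-24 (-0.61 ± 0.08 SE, adjusted p = 7.4e-04), ins-3 (0.71 ± 0.12, adjusted p = 0.0028), daf-28 (0.77 ± 0.14, adjusted p = 0.0043) and ins-35 (-0.58 ± 0.12, adjusted p = 0.0081).

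**Figure D5:**
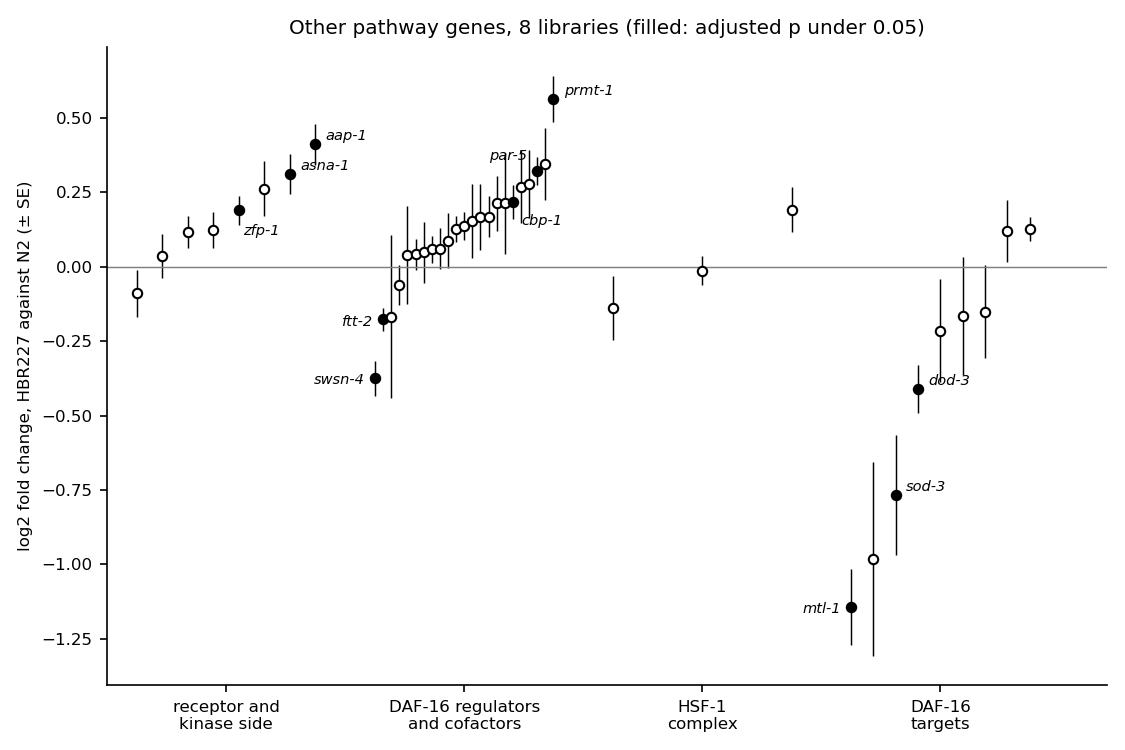
Log2 fold change of HBR227 against N2 (vertical axis, ± SE) with all 8 libraries for the tested genes of 4 lists around the pathway, sorted within each list and filled and named where adjusted p was under 0.05. aap-1, asna-1, zfp-1, prmt-1, par-5 and cbp-1 lie above 0, and swsn-4, ftt-2, mtl-1, sod-3 and dod-3 below it.

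Profiles over the 8 libraries were compared among 12912 other genes whose average log2 CPM was 1 or more. The genes most like daf-2 by Pearson correlation of log2 CPM were pdf-1 (0.995), which encodes a neuropeptide precursor, R10E8.6 (0.994) and gei-3 (0.993). The most like daf-16 were C18H7.1, ogdh-1, a subunit gene of the mitochondrial 2-oxoglutarate dehydrogenase, and Y17G7B.10, at 0.999, 0.998 and 0.998. Among the pathway genes, daf-2 and daf-16 were at 0.96 with each other, and daf-2 with daf-18 at 0.06. All 8 points share the strain difference and the library HBR227 A, so these values describe these libraries only.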

How the data were processed

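The authors deposited raw counts per gene, not scaled, for 8 libraries of whole arrested L1 larvae. Bowtie 0.12.2 and the builds WBcel235 and mm8 are named, with no role, in the submitters' processing notes; the sources used here do not give the counting tool, annotation or strand setting. Of 46433 rows, 11 had names turned into dates (0.0333% of counts) and were left out. Genes were matched by symbol to Ensembl models of WBcel235 (coordinates 1-based). Lengths are merged exons of all isoforms.

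Counts were tested with edgeR 4.0.16 in R 4.3.3 (TMM, filterByExpr with a minimum count of 10, robust quasi-likelihood F test, no covariate), adjusted by Benjamini-Hochberg over 17522 genes. SE comes from the fold change and F. CPM values are TMM-scaled. The common biological coefficient of variation was 0.152. Ratios had exact permutation tests over libraries. Alternatives were other scalings, DESeq2 1.42.0, limma 3.58.1 voom, 2 other filters, a threshold of 0.01, a block for replicate letters, and leaving out each library in turn. The code was tested on simulated counts. Libraries of a strain differed by more than repeat sequencing of 1 library would give (chi-square per degree of freedom at least 4.70). This cannot tell whether they came from separate RNA or cultures.

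The members and lists were chosen with earlier results of these data known. All 10 members are named, with up to 4 called genes of smallest p from each list and the 3 genes most like daf-2 and daf-16. Protein and promoter sequences were not used here.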

Additional observations from a re-analysis of the deposited data

Results flagged for a closer look

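One value among the 10 genes stood far from the rest of its group. In HBR227 A, daf-18 was at 142.9 CPM, and the other mutant libraries lay between 73.0 and 74.6. The gap to the nearest of them was 0.978 of the whole range of the group, above the 95% critical value of Dixon's test for 4 samples. In all, 20 groups (10 genes in 2 strains) were looked at in this way, and chance marks about 1 in 20 groups. The cause was not tested.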

How the results depend on the processing

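Of the 10 genes, daf-2 and daf-16 were called higher in all alternatives run, with log2 fold changes of 0.18 to 0.33 and of 0.41 to 0.54. age-1 kept its direction in all 17 and lost its call in 5, which were total counts alone, the replicate block (adjusted p = 0.0728), a threshold of 0.01, and leaving out N2 A or HBR227 C. Leaving out HBR227 A brought calls for sgk-1, pdk-1 and ddl-1 in the direction they already had and turned 2 genes, daf-18 to -0.18 and akt-2 to 0.0136. Over all libraries left out in turn these ranged from -0.18 to 0.219 and from -0.073 to 0.0136. akt-1 turned to -0.007 with total counts alone. With each library left out in turn, 0 to 3 of the 10 genes were called lower and 2423 to 7906 genes of all tested, with 7906 without HBR227 A. Leaving out any library other than HBR227 A lowered the count from 3774, the most without HBR227 C (2423), N2 B (2430) and HBR227 D (2510), and a threshold of 0.01 gave 1722. With the replicate block 2 of the 10 were called higher and 3065 of all genes. Libraries with the same letter did not deviate together (correlations of -0.01 to 0.14), so the letters were not taken as pairs. The 3 ratios kept their sign in every alternative, and paired by letter gave exact permutation p of 0.125 to 0.375, where 4 pairs cannot go below 0.125. For the other lists, 150 of 170 counts stayed within 1.5 times of those reported. For the changes given here the cause was not tested beyond fewer libraries or a stricter threshold.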

Other observations

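Genes next to daf-18 were read in the same libraries, as values outside the comparisons above. eri-1, an RNA interference gene, lies on the same minus strand, 53 bp from daf-18 on the side of lower coordinates. It had 19.8 to 23.1 CPM in N2, 18.1 to 18.7 in HBR227 B to D and 25.5 in HBR227 A. On the other side, garr-1 at 991 bp is nearest, but the counts held no row of that name. Y66H1A.5, at 2893 bp, had 30.99 to 35.6 CPM in N2, 36.9 to 40.5 in HBR227 B to D and 47.3 in HBR227 A. hum-8 had 42.5 to 50.8 CPM in N2 and 45.7 to 49.6 in HBR227, with HBR227 A at 49.5. T07A9.12 had 6.94 to 8.33 CPM in N2, 6.21 to 6.96 in HBR227 B to D and 7.09 in HBR227 A. In HBR227 A, eri-1 and Y66H1A.5 lay above all other libraries, and hum-8 and T07A9.12 within their range.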
